A study of Homo sapiens with 12 samples.

Results

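The FOS, JUN and EGR genes were followed as 10 named immediate early genes (FOS, FOSB, FOSL1, FOSL2, JUN, JUNB, JUND, EGR1, EGR2 and EGR3) in transcriptomes of hTERT-RPE1 cells. This established human line comes from the retinal pigment epithelium and divides without limit because it expresses telomerase. They were chosen by name, and each matched 1 of the 53361 rows of the deposited gene table. The 12 libraries came from 4 groups of 3: untreated cells (control), cells given 0.5 µM reversine for 24 h and collected 48 h after the drug was washed off, cells given 0.1 µM bafilomycin A1 (BafA1) for 6 h, and cells given 1 µM MG132 for 24 h. Reversine inhibits the MPS1 kinase of the spindle checkpoint and makes cells missegregate chromosomes, BafA1 blocks the vacuolar proton pump and so lysosomal degradation, and MG132 inhibits the proteasome. Doses and times differed between the drugs, so each drug's values stand for that dose and time. All libraries came from 1 immortalised line, and the labels name neither separate cultures nor a vehicle control.

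FOS and JUN proteins pair through leucine zippers to form AP-1, a transcription factor that binds TGANTCA sequences, while EGR proteins are zinc finger factors that bind GC-rich sites. Growth factors, serum and stress switch these genes on within minutes without new protein synthesis, through MAP kinases acting on serum response factor and its ternary complex partners and on CREB and ATF proteins. FOSL1, FOSL2 and JUND are as a rule made steadily in growing adherent cells, whereas FOS, FOSB and EGR1 transcripts come in short bursts. AP-1 and EGR proteins are themselves short-lived and are degraded by the proteasome. Of 11 retinal pigment epithelium markers, 9 averaged at least 1 FPKM (sequenced fragments relative to transcript length and library size). The defining genes RPE65 and TYR averaged below 1 FPKM. The same cut was passed by 4 of 4 neuron, 3 of 4 endothelium, 3 of 6 blood and 3 of 5 other epithelium markers. These counts therefore do not identify the cell type.

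Libraries of the same group differed in technical measures. In 4 libraries, all from treated cells (reversine 1, BafA1 3, MG132 2 and MG132 3), values fell with transcript GC content relative to the mean of the 12, by 0.08 to 0.42 log2 units per 10 points of GC; in the other 8 they rose by 0.07 to 0.20. All 10 genes lie above the median GC content of the rows tested (48.2%), so results of these genes are also given without those libraries, or with a term for the split, where that changes a call. Control 3, MG132 2 and MG132 3 also listed 9118 to 10150 rows at 0, against 889 to 4240 in the other 9. Depth relative to the deepest library, inferred from the no-read values described next and not from reads, ran from 0.566 to 1.0. Read counts are unknown, so no counting intervals can be given. Many rows with little or no sequence support are not at 0 in this table but at a small value that goes with transcript length, and this no-read value was estimated for each gene and library.

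**Figure D1:**
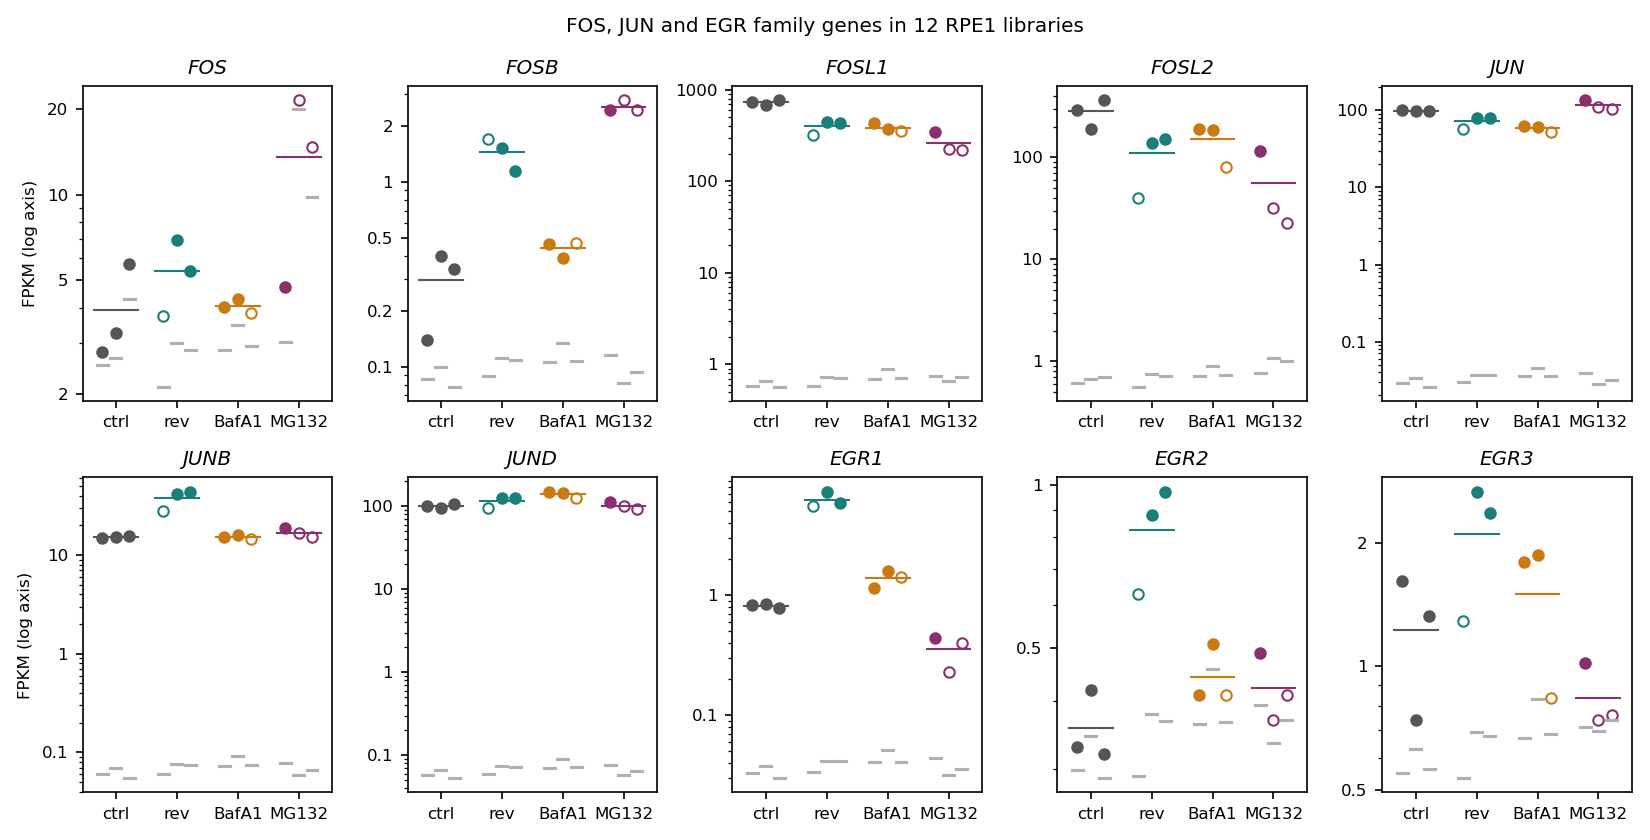
FPKM of the 10 genes (log axis, a different range for each gene) in the control (ctrl), reversine (rev), BafA1 and MG132 libraries, in replicate order; coloured bars are group means, open circles the 4 libraries whose values fell with GC content, and grey ticks the estimated value of a gene without reads. EGR1 was highest in the 3 reversine libraries and lowest in the 3 MG132 libraries, and FOS and EGR2 lay close to their grey ticks in most libraries.

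The sequences upstream of EGR1, EGR2, FOSB, JUNB and JUN are shown. Reversine and MG132 values did not overlap for these genes, of which EGR2 was not tested. The elements searched for are among those known to switch immediate early genes on. Any that lie further upstream than 250 bases were not covered. RefSeq windows for build GRCh38.p14 matched 8 of the 10 genes, with no entry used for FOSL1 and EGR3, and the 250 bases before the annotated start were searched on both strands. Capitals mark the CArG box (the element bound by serum response factor), TGACG (the core of CREB and ATF sites; CGTCA on the other strand) and TGACATCA (a variant AP-1 and ATF site). EGR1 is read from chr5:138465229-138465478 on the plus strand, EGR2 from chr10:62816367-62816616 on the minus strand, FOSB from chr19:45467746-45467995 on the plus strand, JUNB from chr19:12791236-12791485 on the plus strand and JUN from chr1:58784048-58784297 on the minus strand. For EGR2, which has 3 windows, the third is printed because it alone of them held a CArG box.
EGR1: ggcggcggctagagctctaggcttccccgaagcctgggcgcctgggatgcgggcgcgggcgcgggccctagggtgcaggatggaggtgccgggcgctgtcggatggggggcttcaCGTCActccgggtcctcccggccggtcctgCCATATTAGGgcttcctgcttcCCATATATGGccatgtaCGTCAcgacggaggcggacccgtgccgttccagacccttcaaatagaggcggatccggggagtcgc
EGR2: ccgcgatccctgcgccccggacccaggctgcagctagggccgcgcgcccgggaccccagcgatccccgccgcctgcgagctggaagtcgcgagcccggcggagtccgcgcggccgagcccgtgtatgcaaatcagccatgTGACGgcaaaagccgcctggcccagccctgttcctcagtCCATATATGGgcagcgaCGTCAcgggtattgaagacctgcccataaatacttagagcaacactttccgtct
FOSB: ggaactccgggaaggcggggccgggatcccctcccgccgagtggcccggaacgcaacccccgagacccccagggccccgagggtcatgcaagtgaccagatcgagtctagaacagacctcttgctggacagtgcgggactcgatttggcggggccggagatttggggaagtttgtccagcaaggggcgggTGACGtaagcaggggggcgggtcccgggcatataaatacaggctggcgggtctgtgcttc
JUNB: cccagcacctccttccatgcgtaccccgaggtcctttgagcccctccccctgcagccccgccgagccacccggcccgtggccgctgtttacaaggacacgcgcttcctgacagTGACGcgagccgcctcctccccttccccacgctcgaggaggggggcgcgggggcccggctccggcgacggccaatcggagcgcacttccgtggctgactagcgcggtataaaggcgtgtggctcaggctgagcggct
JUN: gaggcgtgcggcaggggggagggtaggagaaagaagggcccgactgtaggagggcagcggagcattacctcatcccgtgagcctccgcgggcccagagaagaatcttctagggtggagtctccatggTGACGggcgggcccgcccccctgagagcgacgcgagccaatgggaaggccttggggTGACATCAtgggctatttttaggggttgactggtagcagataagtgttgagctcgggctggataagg
A CArG box was present in 1.16% of all 35116 windows of this length. EGR1 held 2, at 105 to 96 and 83 to 74 bases before the start, and the printed EGR2 window held 1, at 71 to 62 bases. TGACG, found in 21.2% of all windows, lay in at least 1 window of each of the 8 genes. TGACATCA (2.38% of windows) stood 67 to 60 bases before the JUN start, and TGACGTCA, which contains TGACG (1.65% of windows), 200 to 193 bases before that of JUND. TATAAA (10.7% of windows) was found close to the starts of FOS, FOSB and JUNB, and TGANTCA (6.57%) in no window of the 8 genes. A match describes these letters and does not show that a factor binds there.

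FOSL1 and FOSL2 supplied nearly all FOS family transcript in every library, and both were highest in untreated cells. FOSL1 (FRA-1), a FOS relative without the transactivation domain of FOS, measured 736, 684 and 765 FPKM in the controls. It measured 318, 439 and 436 FPKM after reversine, 437, 368 and 350 after BafA1, and 342, 227 and 221 after MG132. None of the 9 treated libraries reached the lowest control. On log2(FPKM + 1), FOSL1 was lower by 1.49 after MG132 (SE 0.19, limma adjusted p = 0.000879, a ratio of means of 0.361), and this call held in all 23 alternative analyses. The reversine difference was −0.89 (SE 0.19, adjusted p = 0.0478), with the groups apart. Leaving out any 1 library other than MG132 1 took that adjusted p to between 0.0622 and 0.194, and without MG132 1 it was 0.0135. It was 0.216 under median-ratio scaling and 0.0687 with no filter on low values, and the reversine call held in 9 of 23 alternatives. After BafA1 the difference was −0.92 (95% interval −1.35 to −0.50), of the same order as after reversine, but it was not called (adjusted p = 0.132). It was called without MG132 1 (adjusted p = 0.0410), with GC and length correction (0.00943) and with a term for the GC split (−0.78, 0.0111), and not without the 4 libraries of that split (−0.86, 0.0661). FOSL1 was lowest within each treated group in the libraries whose values fell with GC content. Without those 4 libraries it was lower by 1.09 after MG132 (adjusted p = 0.00883) and by 0.73 after reversine (adjusted p = 0.0290).

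FOSL2 (FRA-2), the other abundant FOS relative, measured 292, 190 and 361 FPKM in the controls and 115, 31.7 and 22.9 FPKM after MG132. Reversine libraries gave 39.9, 139 and 149 FPKM and BafA1 libraries 190, 185 and 79.5 FPKM. Every treated library lay below the lowest control, though BafA1 1 only narrowly. The MG132 difference was −2.60 (SE 0.69, limma adjusted p = 0.0341), a mean 4.98-fold lower. The differences after reversine (−1.52, adjusted p = 0.439) and BafA1 (−0.94, adjusted p = 0.733) were not called. In each treated group the lowest FOSL2 values were those of the libraries whose values fell with GC content, and across the 12 libraries the value followed the split closely. Without those 4 libraries the MG132 difference was −1.24 (adjusted p = 0.112), resting on the single library MG132 1; with a term for the split in the fit of all 12 it was −1.47 (adjusted p = 0.0117). The MG132 call was also lost without any 1 of the control libraries (adjusted p from 0.0601 to 0.0949), BafA1 1 (0.0514), BafA1 2 (0.05), MG132 2 (0.123) or MG132 3 (0.132), with no filter on low values (0.0518) and in a fit of the 2 groups alone (0.0821).

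FOSB, which forms AP-1 with the JUN proteins and is as a rule nearly silent without a stimulus, was low in every group. Its values set the reversine and MG132 libraries apart from the others, while BafA1 overlapped the controls. Controls measured 0.14, 0.40 and 0.34 FPKM and BafA1 libraries 0.46, 0.39 and 0.47 FPKM. Reversine libraries measured 1.71, 1.52 and 1.15 FPKM, and MG132 libraries 2.44, 2.77 and 2.46 FPKM. All 6 reversine and MG132 libraries lay above all 6 others, and the MG132 values above the reversine values. Rows were tested where 3 or more libraries held 1 FPKM or more, and FOSB qualified only through those 6 libraries, so a difference was built into its being tested. FOSB was higher by 1.46 after MG132 (SE 0.10, limma adjusted p = 3.78e-05, 8.72-fold in means) and by 0.93 after reversine (SE 0.10, adjusted p = 0.00205, 4.98-fold in means). Its values were 10.5 to 33.7 times the no-read value in these 6 libraries and 1.62 to 4.37 times it in the other 6. Within each treated group FOSB was highest in the libraries whose values fell with GC content. Without those 4 libraries it was higher by 1.42 after MG132 (adjusted p = 0.00917) and by 0.85 after reversine (adjusted p = 0.0360).

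FOS, the founding member of the family, is listed by 10 transcripts of which the shortest has 249 nt, and its values stayed near the no-read level in all 12 libraries. Controls measured 2.80, 3.26 and 5.72 FPKM, reversine libraries 3.76, 6.94 and 5.41, BafA1 libraries 4.03, 4.30 and 3.83, and MG132 libraries 4.72, 21.4 and 14.7 FPKM. The MG132 libraries 2 and 3 stood far above the rest, while MG132 1 lay inside the control range. In those 2 libraries a FOS row without reads was estimated to hold 19.9 and 9.77 FPKM. Of this, 18.4 and 8.11 FPKM belong to the 249 nt transcript. Over all libraries the FOS value was 1.08 to 2.30 times the no-read value, and the highest ratios (1.78 to 2.30) were in the reversine libraries. The deposited values gave a log2 difference of 1.40 after MG132 (SE 0.47, limma adjusted p = 0.0754), which was not called. It was called without MG132 1 (1.97, adjusted p = 0.00185), with limma array weights (2.04, 0.000359) and with GC and length correction (1.74, 0.0275). Without the 4 libraries that fell with GC content it was 0.26, resting on the single library MG132 1. With the no-read value subtracted from every row, the controls held 0.278, 0.595 and 1.43 FPKM and the MG132 libraries 1.69, 1.53 and 4.89 FPKM. The MG132 difference on that scale was not called (limma adjusted p = 0.108). The reversine libraries held 1.64, 3.92 and 2.57 FPKM on the same scale, also above all controls. The reversine difference went from 0.39 to 1.08, not called (limma adjusted p = 0.205). The error of the no-read estimate is not known, so the order of these remainders is uncertain.

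**Figure D2:**
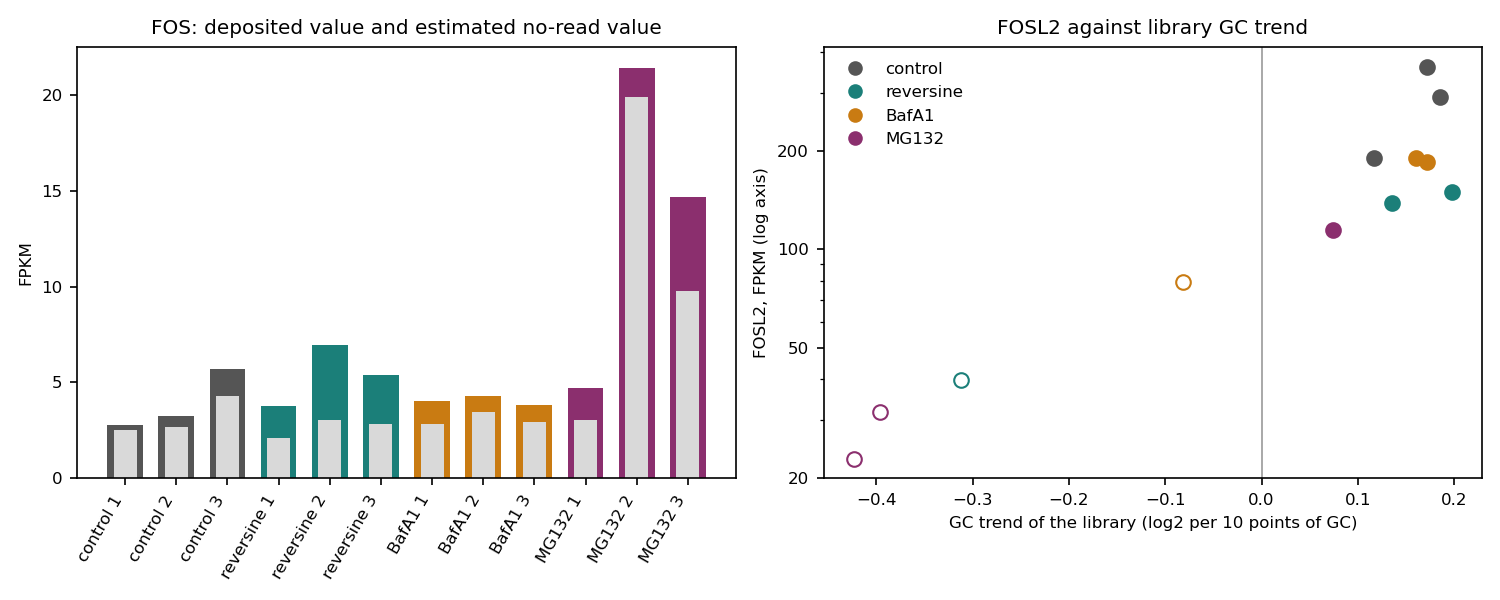
Left, the deposited FOS value in FPKM (coloured bar) and the value estimated for a FOS row without reads (grey) in each library. Right, FOSL2 in FPKM (log axis) against the library's trend with transcript GC content, in log2 units per 10 points of GC, with open circles for the 4 libraries where that trend falls. Most of the high FOS values of MG132 2 and MG132 3 were the estimated no-read value, and FOSL2 was low where the GC trend fell.

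Among the JUN genes, reversine and MG132 differed most in JUNB and JUN. JUNB, which can restrain JUN in growing cells, measured 14.8, 15.3 and 15.8 FPKM in the controls and 27.8, 41.4 and 43.7 FPKM after reversine. BafA1 libraries gave 15.2, 16.0 and 14.6 FPKM and MG132 libraries 18.6, 16.7 and 15.2 FPKM. The 3 reversine libraries were the 3 highest of the 12, and the lowest of them was the one whose values fell with GC content. JUNB was higher by 1.22 after reversine (SE 0.19, limma adjusted p = 0.0107, 2.46-fold in means). That call was lost without control 1 (adjusted p = 0.0611), control 3 (0.0570) or reversine 2 (0.0565), with a difference of 1.14 to 1.24 in those fits. After BafA1 the JUNB difference was −0.0011 (95% interval −0.42 to 0.42) and after MG132 0.13 (−0.29 to 0.55); neither was called. The MG132 difference turned to −0.15 under median-ratio scaling (adjusted p = 0.672), was 0.47 and called with GC and length correction (adjusted p = 0.0266), and was 0.27 without the 4 libraries that fell with GC content (adjusted p = 0.450).

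JUN (c-Jun), the strongest activator of the family and a target of its own product through the TGACATCA element printed above, was tightly grouped in the controls at 103, 97.2 and 98.6 FPKM. It measured 58.1, 80.9 and 80.8 FPKM after reversine, 63.6, 61.2 and 53.2 after BafA1, and 135, 112 and 103 after MG132. All reversine and BafA1 libraries lay below the controls and all MG132 libraries above them, the last of these by under 1 FPKM. No comparison of JUN with control was called by limma: the log2 differences were −0.45 (adjusted p = 0.248) after reversine, −0.74 (adjusted p = 0.157) after BafA1 and 0.22 (adjusted p = 0.350) after MG132. Median-ratio scaling turned the MG132 difference to −0.072. Without reversine 1 the BafA1 difference was called (−0.74, adjusted p = 0.0453). Within each treated group JUN was lowest in the libraries whose values fell with GC content, and its calls depended on how that split was treated. Without those 4 libraries JUN was called after none of the drugs (adjusted p = 0.152 after reversine, 0.0866 after BafA1 and 0.0617 after MG132), nor was it with GC and length correction (0.160, 0.0550 and 0.194 in the same order). With a term for the split it was called after each (−0.34, adjusted p = 0.0276; −0.63, 0.00642; 0.45, 0.00518), and with a second term for the length offset the reversine call was lost (0.0809).

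JUND, the steadily expressed JUN gene, measured 101, 96.8 and 107 FPKM in the controls, 94.9, 127 and 127 after reversine, 150, 145 and 125 after BafA1, and 112, 101 and 91.8 after MG132. BafA1 libraries lay above all controls, while the other 2 drugs overlapped them. None of the differences was called: 0.18 after reversine (95% interval −0.13 to 0.50), 0.46 after BafA1 (0.15 to 0.77, limma adjusted p = 0.437) and −0.0027 after MG132 (−0.31 to 0.31). JUND too was lowest within each treated group in the libraries whose values fell with GC content. The BafA1 difference was called with a term for that split (0.55, adjusted p = 0.0109), but neither without those 4 libraries (0.53, adjusted p = 0.108) nor with GC and length correction (0.41, adjusted p = 0.470).

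Composition of the JUN family, taken as shares of its summed FPKM within a library, does not depend on the scale of that library and was close to constant within groups. JUN made up 46.0% ± 1.30 (SD, n = 3) of JUN family FPKM in the controls, 32.2% ± 0.177 after reversine, 27.7% ± 0.161 after BafA1 and 49.6% ± 1.19 after MG132. JUNB made up 7.07% ± 0.268 of the family in the controls and 16.4% ± 1.02 after reversine, and stood at 7.15% ± 0.466 after BafA1 and 7.17% ± 0.157 after MG132. JUND made up 46.9% ± 1.21 in the controls, 51.3% ± 1.05 after reversine, 65.2% ± 0.322 after BafA1 and 43.2% ± 1.03 after MG132. JUN shares of the 3 reversine libraries ran from 32.1% to 32.4%; reversine 1, whose values fell with GC content, had the lowest JUNB share (15.4%) and the highest JUND share (52.5%) of its group. These shares are descriptions, since an exact test of 3 libraries against 3 cannot pass the threshold.

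**Figure D3:**
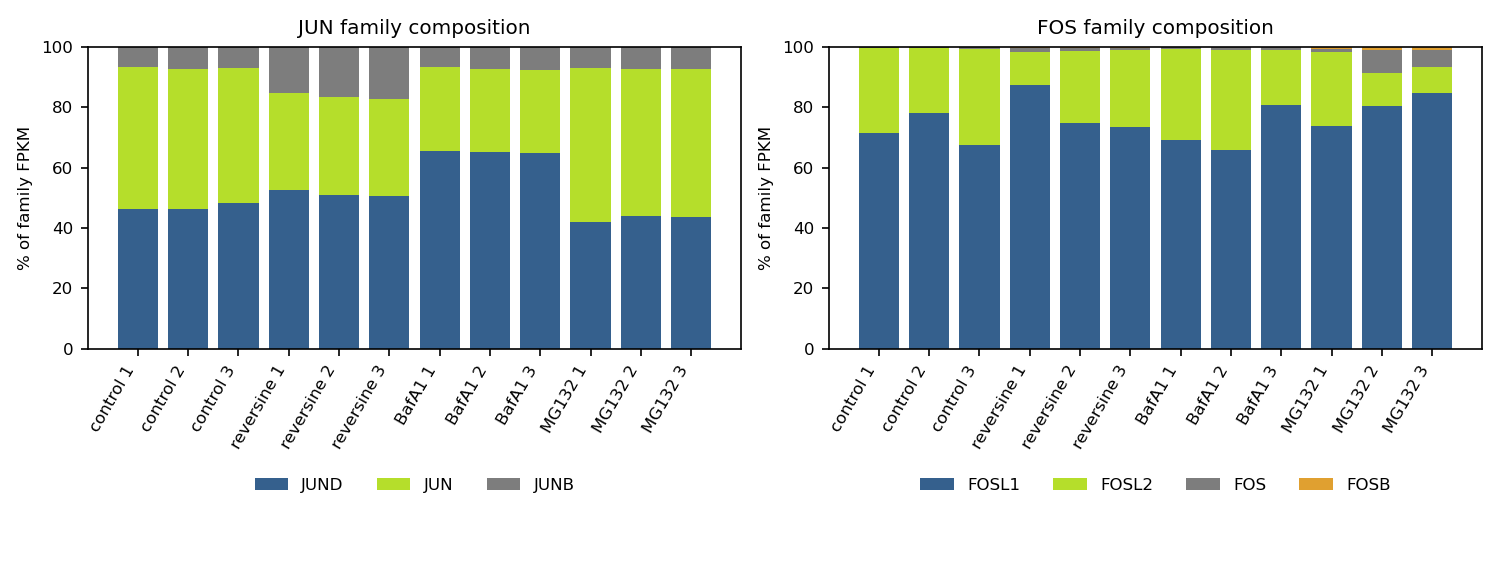
Shares of the summed FPKM of the JUN genes (left) and the FOS genes (right) in each library, in percent. JUND took the largest share in BafA1 libraries and JUNB its largest in reversine libraries; FOSL1 and FOSL2 made up over 90% of FOS family FPKM in every library.

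FOSL1 alone made up 66.0% to 87.5% of FOS family FPKM across the 12 libraries. The summed FOS family FPKM ran from 878 to 1133 in the controls, from 364 to 592 after reversine, from 434 to 631 after BafA1 and from 261 to 464 after MG132, so every treated library lay below every control. FOS and FOSB together were minor parts, FOSB at 0.014% to 0.978%. The FOS share of up to 7.56% in the MG132 libraries holds mostly the no-read value described above.

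EGR1, the immediate early zinc finger factor with 2 CArG boxes in the window printed above, moved in opposite directions after reversine and MG132. It measured 0.83, 0.84 and 0.78 FPKM in the controls, 5.49, 7.25 and 5.80 after reversine, 1.14, 1.59 and 1.43 after BafA1, and 0.44, 0.23 and 0.40 after MG132. No pair of the 4 groups overlapped, and the order from high to low was reversine, BafA1, control and MG132. Only the 6 reversine and BafA1 libraries reached 1 FPKM, so EGR1, like FOSB, was tested because of groups in which it is high. Reversine raised EGR1 by 1.98 on the log2 scale (SE 0.12, limma adjusted p = 0.00013), a 7.57-fold difference in means. MG132 lowered it by 0.42 (SE 0.12, adjusted p = 0.0401, 2.29-fold in means), where the added 1 FPKM makes the log2 difference smaller than the ratio. The MG132 call was lost without any 1 of the controls (adjusted p from 0.0837 to 0.113), BafA1 3 (0.0605), MG132 2 (0.147) or MG132 3 (0.0951), and without the 4 libraries falling with GC content (−0.34, adjusted p = 0.332). It was also lost with no filter on low values (adjusted p = 0.0810), at a minimum of 5 FPKM (0.0667), with GC and length correction (0.0719), with the GC term (0.113) and with both terms (0.143), and so held in 11 of 23 alternatives. The BafA1 difference of 0.39 (95% interval 0.13 to 0.65) was not called (adjusted p = 0.430). EGR1 stood at 22 to 26 times its no-read value in the controls, 139 to 171 times after reversine and 7.26 to 11 times after MG132.

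EGR2 (KROX20), known for its role in hindbrain and Schwann cells, stayed below 1 FPKM in all 12 libraries and so was the only 1 of the 10 genes not tested. It measured 0.33, 0.42 and 0.32 FPKM in the controls, 0.63, 0.88 and 0.97 after reversine, 0.41, 0.51 and 0.41 after BafA1, and 0.49, 0.37 and 0.41 after MG132. Reversine libraries were the 3 highest, with a mean 2.32-fold that of the controls. They were also the only ones above 2 times the no-read value, at 2.16 to 2.64 times, against 1.10 to 1.24 times in the other 9 libraries.

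EGR3, a gene that EGR1 and calcium signals are known to act upon, measured 1.61, 0.74 and 1.33 FPKM in the controls, 1.29, 2.66 and 2.36 after reversine, 1.80, 1.87 and 0.84 after BafA1, and 1.02, 0.74 and 0.76 after MG132. All 3 treated groups overlapped the controls, and no comparison was called by limma (0.47 after reversine, adjusted p = 0.439, and −0.26 after MG132, adjusted p = 0.406). The lowest EGR3 values of each treated group were in the libraries whose values fell with GC content. EGR3 was 1.03 to 3.84 times its no-read value.

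**Figure D4:**
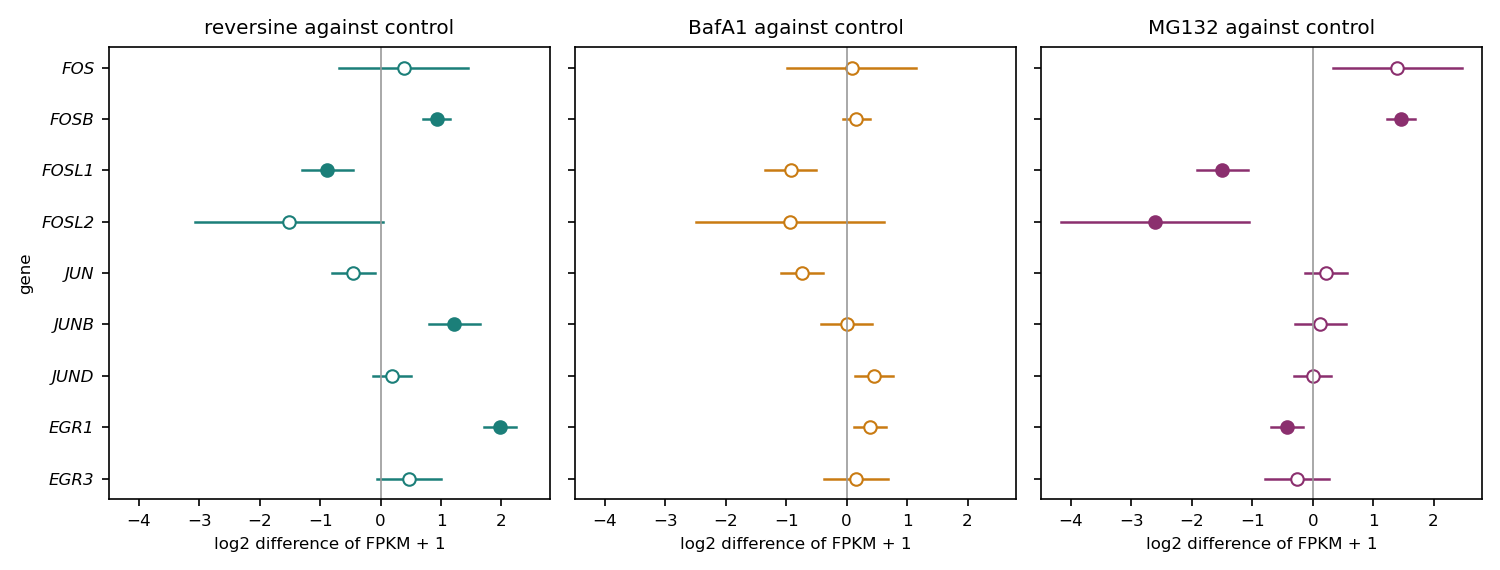
Log2 difference from control of log2(FPKM + 1), with its 95% interval, for the 9 genes tested; filled circles passed limma's adjusted threshold. Reversine raised FOSB, JUNB and EGR1 and lowered FOSL1. MG132 raised FOSB and lowered FOSL1, FOSL2 and EGR1, and no BafA1 difference was called.

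Counted together, 4 of the 9 tested genes were called after reversine, 3 higher (FOSB, JUNB and EGR1) and 1 lower (FOSL1), where 2.09% of the 30712 rows tested were called, 0.801% higher and 1.29% lower. FOSB and EGR1 were among the rows tested only through groups in which they are high, so the shares of all rows are no measure of how unusual these counts are. With no filter on low values both were still called higher after reversine (adjusted p = 0.0044 and 0.000427). After MG132 it was also 4 of 9, 1 higher (FOSB) and 3 lower (FOSL1, FOSL2 and EGR1), against 14.8% of all rows, 7.14% higher and 7.67% lower. After BafA1 it was 0 of 9, against 0.264% of all rows; 4 of the genes (FOSL1, JUN, JUND and EGR1) had an unadjusted p under 0.05 there, against 7.12% of all rows. The median log2 difference of the 9 genes was 0.39 for reversine (0.09 over all rows), 0.08 for BafA1 (0.14 over all rows) and −0.0027 for MG132 (0.04 over all rows). Groups did not overlap for 6 of 9 genes after reversine (20.1% of all rows), 5 of 9 after BafA1 (23.1%) and 5 of 9 after MG132 (33.9%). The 3 comparisons share their controls. Fitted with only reversine and control libraries, none of the 4 reversine calls remained, with adjusted p from 0.0659 for EGR1 to 0.191 for JUNB and the same differences.

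Compared directly, the drugs differed in FOSB, JUN, JUNB and EGR1. MG132 libraries held more FOSB (0.54, limma adjusted p = 0.0136) and JUN (0.67, adjusted p = 0.0350) than reversine libraries, and less JUNB (−1.09, adjusted p = 0.00832) and EGR1 (−2.40, adjusted p = 1.56e-05). That made 4 of 9 genes, against 6.51% of all rows, 2.99% higher and 3.52% lower. Here too FOSB and EGR1 were tested only through groups in which they are high. The share of all rows is thus no measure of how unusual the count is. EGR1 had the widest gap, 17.3-fold in means, and its call held in all 23 alternatives. The JUN call was lost without any 1 of 9 libraries (adjusted p from 0.0547 to 0.116), remaining without reversine 1, BafA1 3 or MG132 1. Median-ratio scaling ended both the JUN call (0.36, adjusted p = 0.236) and the FOSB call (0.33, adjusted p = 0.124). The FOSB call was also lost with 0.1 added in place of 1 (adjusted p = 0.0927), without the 4 libraries that fell with GC content (0.165), with both terms (0.0609) and without MG132 2 (0.0606), and the JUNB call without MG132 3 (0.0503).

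Against BafA1, MG132 libraries were higher in FOSB (1.30, limma adjusted p = 7.24e-05) and JUN (0.96, adjusted p = 0.00415) and lower in EGR1 (−0.81, adjusted p = 0.00215), or 3 of 9 where 10.9% of all rows were called, 4.49% higher and 6.37% lower. The JUN call was lost under median-ratio scaling (0.76, adjusted p = 0.0699) and the EGR1 call without the 4 libraries that fell with GC content (−0.71, adjusted p = 0.0837). Reversine libraries were higher than BafA1 libraries in FOSB (0.77, adjusted p = 0.00714), JUNB (1.22, adjusted p = 0.0151) and EGR1 (1.59, adjusted p = 0.000495), also 3 of 9, against 1.23% of all rows, 0.443% higher. JUNB lost that call without reversine 2 (adjusted p = 0.0827), reversine 3 (0.0641) or any 1 of the BafA1 libraries (0.0549 to 0.0715), and FOSB without the 4 libraries that fell with GC content (0.71, adjusted p = 0.114). FOSB and EGR1, tested only through groups in which they are high, are among the calls of both comparisons with BafA1. The shares of all rows therefore do not measure how unusual these counts are. FOSL1 and FOSL2, lower in each drug's libraries than in any control, were called in none of the comparisons between drugs.

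Across the 12 libraries, JUNB and EGR1 had a Pearson correlation of 0.88 on log2(FPKM + 1), and FOSL1 and FOSL2 one of 0.90. FOSB ran against FOSL1 (−0.79) and had almost no relation with EGR1 (0.01). These are descriptions over libraries that share 4 groups, and the FOSL1 and FOSL2 values share the split by GC content. Among 20277 other genes averaging 2 FPKM or more, the patterns most like EGR1 were those of IL1B (0.99), the proinflammatory cytokine, FUCA1 (0.97), a lysosomal fucosidase, and CLSTN2 (0.97). IL1B measured 16.9 to 19.2 FPKM in the controls, 119 to 151 after reversine and 11.1 to 12 after MG132. Closest to JUNB were NPPB (0.97), the natriuretic peptide precursor, DHRS2 (0.97) and ACTA2 (0.96), smooth muscle actin, which measured 32.5 to 37.2 FPKM in the controls and 72.1 to 96.2 after reversine. Closest to FOSB were CTTN (0.99), the actin-binding protein cortactin, AKAP8L (0.98) and IL32 (0.98), a cytokine. The patterns nearest to FOSL1 were those of NCEH1 (0.99), TMEM201 (0.98) and PGAM5 (0.98), a mitochondrial phosphatase. Nearest to FOSL2 were SZRD1 (0.99), CAPRIN1 (0.99) and RBM38 (0.99), and all 3 of these, like the 3 nearest to FOSL1, were lowest within each treated group in the libraries whose values fell with GC content.

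Lists of related genes were counted in the same way, to be read beside the share of all rows called, 2.09% after reversine, 0.264% after BafA1 and 14.8% after MG132 (7.14% higher and 7.67% lower). These shares belong to the fit of all 12 libraries. List counts without the 4 libraries that fell with GC content come from a separate fit of 28122 rows. They have no share of all rows beside them, so they do not show whether a list gained or lost calls relative to all rows. After reversine 2 of 15 tested AP-1 partners were higher (ATF3 and MAF) and 1 lower (BATF3), with a list median of 0.14 beside 0.09 for all rows. ATF3, a stress-induced factor that represses or activates with JUN proteins, measured 2.21 ± 0.240 FPKM in the controls (mean ± SD, n = 3), 12.5 ± 2.60 after reversine (log2 difference 2.06, limma adjusted p = 0.00245) and 14.0 ± 2.87 after MG132 (2.20, adjusted p = 0.000342). BafA1 raised only MAF (1.52, adjusted p = 0.0182) among the 15. MG132 raised 4 partners, MAFG (2.13), ATF3, MAFF (1.30) and CREM, and lowered BATF3 and CREB1, with a median of 0.20 beside 0.04. MAFG, a small MAF protein that pairs with NRF2, stood at 17.6 ± 1.86 FPKM in the controls and 80.4 ± 4.76 after MG132 (adjusted p = 2.2e-05). CREM and the 2 lowered partners were named after their values were seen. Omitting the 4 libraries whose values fell with GC content left 2 higher and 1 lower after reversine, none after BafA1, and 4 higher and 1 lower after MG132.

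Of the other immediate early genes, 2 of 17 tested were higher after reversine (BTG2 by 2.13 and ATF3, which stands in both lists) and 1 lower (KLF2, −0.93), where 2.09% of all rows were called; the median was 0.23. BTG2, an antiproliferative gene that p53 can switch on, measured 3.18 ± 0.0710 FPKM in the controls and 17.3 ± 0.664 after reversine (limma adjusted p = 0.000569). After BafA1 only CYR61 was called of the 17, lower by 0.87 (adjusted p = 0.0215), median −0.26. After MG132 5 were higher and 4 lower, median 0.33, with PPP1R15A (GADD34, which reverses the block of translation under stress) at 41.5 ± 1.12 FPKM in the controls and 151 ± 16.5 FPKM after MG132. IER5 was higher by 0.97 (adjusted p = 0.000736). The rest, named after their values were seen, were CYR61 and IER3 (higher) and IER2, IER5L, KLF2 and MCL1 (lower). Without the 4 libraries that fell with GC content 5 were higher and 1 lower after MG132, and 3 and 1 after reversine.

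Feedback inhibitors, which switch the response off again, were the list with most calls after MG132. Of 20 tested, 3 were higher and 8 lower after MG132, where 7.14% of all rows were higher and 7.67% lower, and the median was −0.44 beside 0.04 for all rows. DUSP1, the nuclear phosphatase that inactivates p38 and JNK, rose from 32.0 ± 1.16 FPKM in the controls to 216 ± 9.11 after MG132 (2.72, limma adjusted p = 2.29e-06). DUSP4 and ZFP36L2, a phosphatase of ERK and an RNA-binding decay factor, fell by 1.94 and 2.16 (adjusted p = 9.34e-05 and 0.000104). NAB2, the corepressor of EGR1, went from 24.3 ± 1.87 FPKM to 12.9 ± 2.02 (adjusted p = 0.00842), and was picked after its value was seen. Reversine raised DUSP1 alone of the 20 (0.55, adjusted p = 0.0263; 47.4 ± 4.20 FPKM), and BafA1 raised SPRY1 alone (1.54, adjusted p = 0.0151). Without the 4 libraries that fell with GC content the MG132 counts were 3 higher and 7 lower.

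Regulators upstream showed few calls outside MG132. Of 6 tested genes of serum response factor and its ternary complex partners none was called after reversine or BafA1 (medians −0.38 and −0.02), and 2 were lower after MG132 (median −0.53). SRF, which binds the CArG box, measured 71.0 to 86.4 FPKM in the controls, 26.5 to 68.2 after reversine and 11.2 to 39.2 after MG132 (−2.03, limma adjusted p = 0.0205), and ELK1 fell by 0.70 (adjusted p = 0.0267). Of 24 MAP kinase cascade genes, reversine lowered RPS6KA2 alone (−0.65, adjusted p = 0.0189), BafA1 changed none, and MG132 raised 4 and lowered 2, where 14.8% of all rows were called. RPS6KA2 and RPS6KA4, kinases that phosphorylate CREB and other targets, changed by −1.84 and −1.96 after MG132, and MAPK13, a p38 kinase, by 1.21. MAP2K5, BRAF and RPS6KA5, also higher, were named after their values were seen. Omitting the libraries that fell with GC content left 1 of the 6 serum response factor genes lower after MG132, and 3 of 24 cascade genes higher and 2 lower.

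Growth factors and their receptors were called only after MG132. Of 12 growth factors 4 were higher there and none lower: EGF by 1.34 (limma adjusted p = 0.00644), HBEGF by 0.88 (0.00929), FGF2 by 2.17 (0.0119) and, named after its value was seen, FGF7. The list's median stood at −0.03, opposite in sign to the 4 calls. Of 13 receptors 2 were lower, ERBB2 by 1.73 (adjusted p = 0.0208) and EGFR by 0.94 (0.0242), median −0.16; 2 of 13 is close to the share of all rows called after MG132, 14.8%. No growth factor or receptor was called after reversine or BafA1 (medians 0.19 and −0.12 for factors, −0.15 and 0.06 for receptors). Without the 4 libraries that fell with GC content only 1 growth factor of 10 tested was higher after MG132 and 1 lower, 1 was higher after reversine, and 1 receptor was lower after MG132.

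Of 19 tested genes known as AP-1 and EGR targets, 4 were higher after reversine and none lower, where 0.801% of all rows were higher; the median was 0.47 beside 0.09. IL8, a chemokine, rose from 1.10 ± 0.204 to 22.6 ± 6.77 FPKM (limma adjusted p = 0.00445), HMOX1 by 1.41 (0.00503), and IL6, named after its value was seen, by 1.33 (0.0134). BafA1 lowered 2 of the 19, among them F3 (−1.31, adjusted p = 0.0441), median −0.14. MG132 raised 3 and lowered 7, with 9 not called and a median of −0.42, where 7.14% of all rows were higher and 7.67% lower. PLAU, the urokinase plasminogen activator, fell from 272 ± 47.6 to 24.9 ± 0.764 FPKM (−3.38, adjusted p = 5.57e-06), and HMGA1 fell by 1.29 (0.00011). HMOX1, an antioxidant gene, rose from 34.0 ± 4.69 to 408 ± 71.2 FPKM after MG132 (adjusted p = 1.07e-05). Without the libraries that fell with GC content 6 targets were higher and 1 lower after reversine, counts with no share of all rows beside them. The list median after MG132 was −0.40 in that fit, which keeps only the library MG132 1 of its group.

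**Figure D5:**
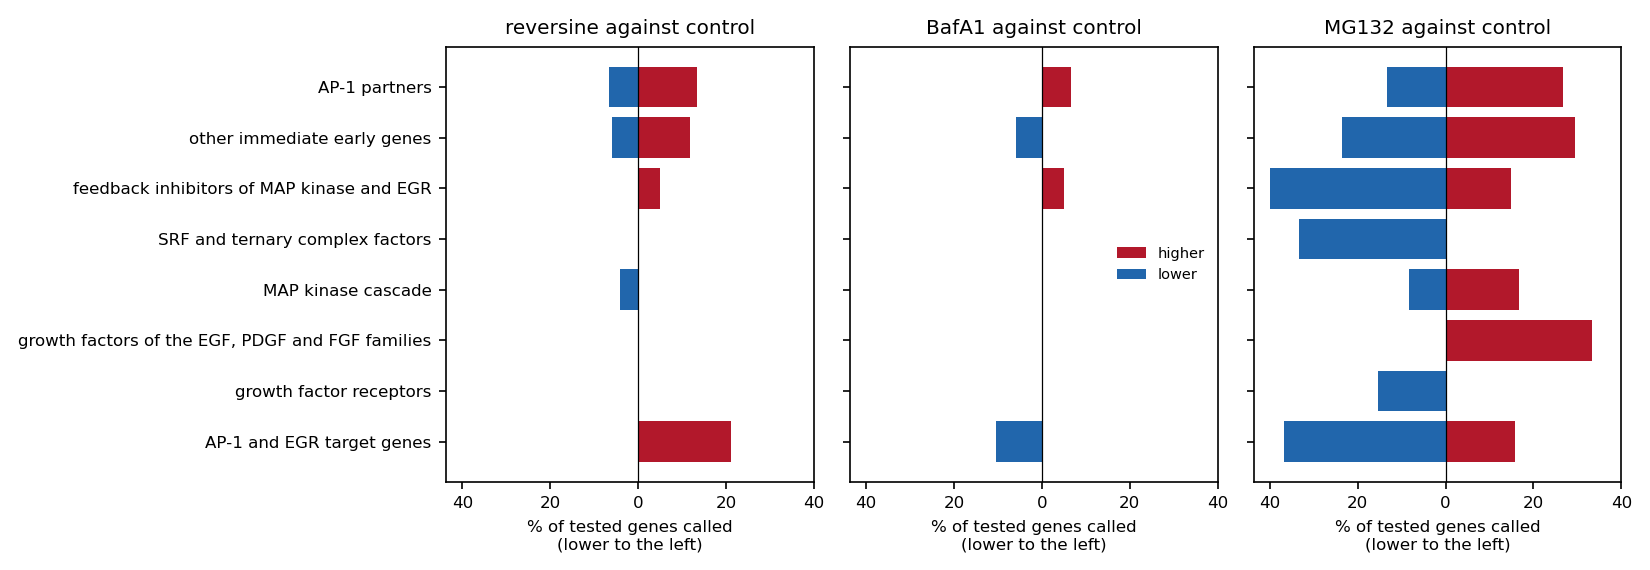
Percent of the tested genes of each list that were called higher (right of 0, red) or lower (left of 0, blue) than control. Feedback inhibitors and AP-1 and EGR target genes were mostly lower among the genes called after MG132, while the target genes called after reversine were all higher.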

How the data were processed

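RNA was measured in 12 libraries of hTERT-RPE1 cells, grouped by the treatment in the labels (3 each). Bowtie 1.0.0, RSEM 1.2.6 and hg19 (GRCh37) are named in the submitters' processing notes. The header of the deposited table names no unit; its values were taken as FPKM made by the authors, because column totals differed between libraries. Per the labels' protocols, poly(A) RNA was sequenced as 50 nt reads from inserts of 150 to 350 nt.

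The 10 genes and the gene lists were chosen with earlier results of these data known. The 30712 rows that reached 1 FPKM in 3 or more libraries were tested with limma 3.58.1 (R 4.3.3), trend method, on log2(FPKM + 1), in a single fit of 4 groups with no covariate and 8 residual degrees of freedom. Called means a Benjamini-Hochberg adjusted p under 0.05 over all rows of a comparison. The method was also run on simulated data with independent normal noise and no GC split, which cannot show the effect of that split. Log2 differences are on the log2(FPKM + 1) scale, which understates changes of low genes. Fold values are ratios of mean FPKM as deposited, with nothing added and the no-read value not subtracted. Intervals are 95% and two-sided. Whether libraries of a group are separate cultures is not in the labels, and the p-values therefore reflect the spread among these libraries, which may be technical.

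The no-read value of a transcript was the lower quartile of the 41 single-transcript rows nearest in length, up to 1200 nt. Beyond that length it came from a fitted curve. It was summed over the transcripts of a gene, and its error was not estimated. GC content came from GENCODE 29 transcripts, over 14167 coding rows. Named genes were the 10, up to 3 called genes with the smallest adjusted p of each list and comparison, and the 3 rows most correlated with each called member. A gene of the target list that this rule names is counted but not reported here. Other settings tried were another pseudocount, other filters, scaling, array weights, GC correction and leaving out libraries.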

Additional observations from a re-analysis of the deposited data

How the results depend on the processing

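Of the 18 calls, 4 held in all of the 23 alternatives that could be run for them (FOSL1 and FOSB after MG132, FOSB in MG132 against BafA1, EGR1 in MG132 against reversine), and none changed sign. The count of genes called after reversine (4) became 0 when the 2 groups were fitted alone, and ran from 2 to 4 with any 1 library left out. After BafA1 (0) it became 3 with limma array weights, 1 with a GC and length correction, 3 with a term for the falling GC trend and 3 with terms for that trend and the length offset; with a library left out it ran from 0 to 1. After MG132 (4) it became 2 with no filter on low values, 2 at a minimum of 5 FPKM and 2 when the 4 libraries of falling GC trend were omitted, and ran from 2 to 5 with a library left out. Between drugs (10) it became 4 in fits of 2 groups alone and 21 with array weights, and ran from 8 to 18. The cause was not tested. The GC terms, the subtraction of the no-read value and the list counts without 4 libraries were chosen after seeing the data. Over the alternatives all rows called ran from 11 to 2402 for reversine (642 as reported), from 19 to 613 for BafA1 (81) and from 2427 to 20925 for MG132 (4549).

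Values that changed sign all belonged to uncalled results. With any 1 library left out, the BafA1 difference ran from −0.083 to 0.33 for FOS, −0.034 to 0.029 for JUNB and −0.0068 to 0.37 for EGR3, and the MG132 difference of JUND from −0.075 to 0.067. The GC term gave −0.034 for FOS after BafA1. JUNB after BafA1 became 0.023 with array weights, 0.0029 with GC correction, 0.029 omitting the 4 libraries, 0.099 with the GC term and 0.14 with both terms. After MG132, median-ratio scaling gave −0.072 for JUN and −0.15 for JUNB. JUND after MG132 became 0.29 with GC correction, 0.14 omitting the 4 libraries, 0.19 with the GC term and 0.18 with both terms. EGR3 after MG132 became 0.17 with GC correction, 0.063 with the GC term and 0.036 with both terms.

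No paired analysis was possible because the labels give the libraries no replicate numbers that are shared between groups. Summing the rows of a gene was not run, since each of the 10 genes has 1 row. Read counts are unknown, and FOS, EGR2 and EGR3 lie near the no-read value, which limits what their values can show.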
